A study of Mus musculus with 4 samples.

Results

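The STAT transcription factor genes were described in 4 RNA-seq libraries of mouse primary cells labelled T-helper 17 (Th17), a class of CD4 T cells that makes interleukin 17. The genes were taken by name as Stat2, Stat3, Stat4, Stat5a, Stat5b and Stat6, which are 6 of the 50600 gene rows and 6 of the 21751 nuclear protein-coding genes measured. All 4 libraries, numbered as biological replicates 1 to 4, came from strain C57BL/6NJ and formed 1 group. No control group, treatment, genotype, age or sex is given in the labels, which link a CD4 T-cell differentiation protocol. Each library has its own biosample record, all share 1 donor record, and the alignment names carry an hour tag of 0. Because separate animals are not stated, the spread between libraries may be partly technical.

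STAT proteins carry cytokine signals from the cell surface to DNA. A cytokine brings its receptor chains together, the JAK kinases bound to those chains phosphorylate a STAT protein, and the STAT proteins pair, enter the nucleus and bind DNA. Each STAT has its own inputs: Stat2 acts in the response to type I and type III interferons, Stat3 downstream of interleukins 6, 21, 23 and 10, Stat4 of interleukin 12, Stat5a and Stat5b of interleukins 2 and 7, and Stat6 of interleukin 4. In CD4 T cells Stat3 is required for the Th17 fate, Stat4 is tied to Th1 cells and Stat6 to Th2 cells. The activity of these proteins is set by phosphorylation, which RNA counts do not measure.

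The labelled cell type was checked against marker genes. All 8 CD4 T-cell markers reached 1 TPM (counts scaled by gene length and by library total) in every library, and they summed to between 8086 and 8360 TPM. All 8 markers of naive or resting T cells did so too, with sums of 6503 to 7356 TPM. Of 10 Th17 markers 4 reached 1 TPM in every library, their sums were 16.4 to 28.1 TPM, and Il17f and Il17a led at 9.83 ± 3.10 and 4.22 ± 1.53 TPM (SD, n = 4). The defining receptor gene Il23r had 8 counts over all 4 libraries. Few markers of other cells reached 1 TPM in every library. Of 8 B-cell markers 1 did (sums of 7.22 to 8.47 TPM), and of 10 myeloid markers 1 did (1.81 to 3.44 TPM, with Cd14 and Xcr1 at 0 counts). Of 8 CD8 T and NK-cell markers 1 did, with sums of 41.5 to 48.7 TPM, of which Cd8b1 made up 42.9 ± 2.88. These sums lay above those of the Th17 markers, whereas Cd8a had 23 counts in all. Total counts were 29041979, 35018552, 48808978 and 45490373 in replicates 1 to 4.

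All 6 STAT genes were transcribed at 46.0 TPM or more in every library. At 1 TPM or more in every library stood 45.6% of nuclear protein-coding genes. The median over the STAT genes was 91.3 TPM, beside 34.2 TPM over the 9926 protein-coding genes at that level. The genes fell into a higher set of Stat6, Stat5b and Stat3 and a lower set of Stat2, Stat4 and Stat5a. The means of the highest and the lowest gene differed 5.93-fold. Together the 6 genes held 762, 792, 743 and 799 TPM in replicates 1 to 4.

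Stat6, which mediates interleukin 4 signals, was the most abundant STAT transcript. It is gene ENSMUSG00000002147, on chromosome 10 from 127642986 to 127660957 on the plus strand (mm10), with 21 exon blocks. Its levels were 273, 304, 268 and 326 TPM in replicates 1 to 4, with a mean of 292 ± 27.3 TPM (SD, n = 4), rank 430 among nuclear protein-coding genes. Replicates 2 and 4 were the higher libraries, and the coefficient of variation of 9.34% was the largest of the 6.

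Stat5b and its near copy Stat5a transmit signals of interleukins 2, 7 and 15. Stat5b (ENSMUSG00000020919, chromosome 11, 100780731 to 100850724, minus strand, 20 exon blocks) was at 198, 192, 194 and 173 TPM, with a mean of 189 ± 11.01 TPM and rank 781. Stat5a (ENSMUSG00000004043, chromosome 11, 100859351 to 100885169, plus strand, 16 exon blocks) was at 50.8, 49.3, 51.2 and 46.0 TPM, with a mean of 49.3 ± 2.37 TPM and rank 3756. Replicate 4 was the lowest library for both genes.

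Stat3, the STAT protein through which interleukin 6 directs Th17 differentiation, lay between them. The gene (ENSMUSG00000004040, chromosome 11, 100885098 to 100939540, minus strand, 21 exon blocks) was at 114, 121, 111 and 123 TPM, with a mean of 117 ± 5.72 TPM and rank 1417. Its libraries differed by 1.11-fold from the lowest to the highest.

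Stat2 acts with the DNA-binding protein Irf9 in the interferon response. Stat2 (ENSMUSG00000040033, chromosome 10, 128270559 to 128292849, plus strand, 19 exon blocks) was at 68.3, 70.4, 57.2 and 64.7 TPM, with a mean of 65.2 ± 5.80 TPM and rank 2869. Replicate 3 was the lowest library, and replicate 2 was 1.23-fold above it.

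Stat4, which answers interleukin 12, was at 58.8, 56.1, 62.2 and 66.4 TPM, with a mean of 60.9 ± 4.43 TPM and rank 3070. It is gene ENSMUSG00000062939, on chromosome 1 from 51987148 to 52107189 on the plus strand, with 26 exon blocks. Replicates 3 and 4 were above replicates 1 and 2. The counts behind these levels ran from 1897 for Stat4 to 9993 for Stat6 in replicate 1, the shallowest library, so that counting error alone came to at most 2.30% of a count for any of the 6 genes.

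**Figure D1:**
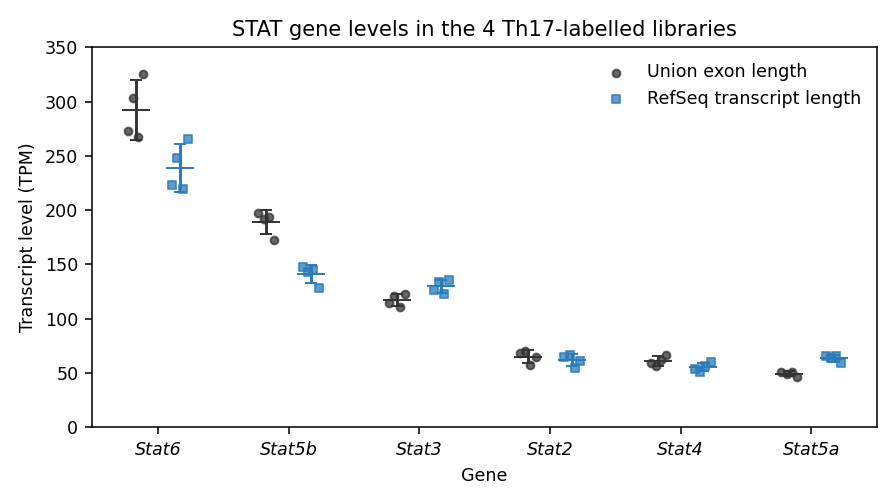
Levels of the 6 STAT genes (x axis) in TPM (y axis) in the 4 libraries, scaled by the union of annotated exons (dark circles) or by RefSeq transcript length (blue squares); horizontal bars are means and error bars SDs over the 4 libraries. Stat6, Stat5b and Stat3 lie above Stat2, Stat4 and Stat5a with either length, and Stat5a moves from 49.3 to 63.5 TPM with the RefSeq length.

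The order of the levels was compared within libraries, as the log2 ratio of 2 genes in each. With 4 libraries, the exact two-sided sign-flip permutation test cannot give a p below 0.13, so no pair could pass 0.05. Of the 15 pairs, 14 had the same order in 4 of 4 libraries with union exon length (exact p = 0.13 each, adjusted p = 0.134 over 15 pairs). With RefSeq transcript length 11 of the 15 did, and with counts scaled by library total alone 13 did. The ratios that follow use union exon length. Stat6 exceeded Stat5b by 0.63 ± 0.21 on the log2 scale (SD, n = 4), a geometric mean ratio of 1.54. Stat5b exceeded Stat3 by 0.69 ± 0.15, and Stat3 exceeded Stat2 by 0.85 ± 0.11. Stat2 and Stat4 did not differ beyond their spread. Their ratio was 0.10 ± 0.21, with Stat2 higher in 2 of 4 libraries (exact p = 0.5, adjusted p = 0.5). Stat4 exceeded Stat5a by 0.30 ± 0.16 in 4 of 4 libraries.

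Part of this order rests on the gene length used. Union exon length adds every annotated exon of a gene, also those of minor transcripts, and was 7133 bases for Stat5a and 9527 for Stat3, whereas their RefSeq transcripts are 3888 and 6042 bases long. With RefSeq lengths the levels were 239 ± 22.2 TPM for Stat6, 141 ± 8.30 for Stat5b, 130 ± 6.23 for Stat3, 63.5 ± 3.10 for Stat5a, 61.7 ± 5.47 for Stat2 and 55.5 ± 4.01 for Stat4 (n = 4). Stat5a then stood above Stat4 by a log2 ratio of 0.20 ± 0.16, in 3 of 4 libraries, and Stat5b exceeded Stat3 by only 0.12 ± 0.15, in 3 of 4. With union lengths Stat2 exceeded Stat5a by 0.40 ± 0.16 in 4 of 4 libraries. With RefSeq lengths Stat5a stood above Stat2 by 0.05 ± 0.16, in 2 of 4. The split into 3 higher and 3 lower genes was seen with each measure of length. The lowest of the higher set exceeded the highest of the lower set 1.67- to 1.86-fold in single libraries with union lengths and 1.86- to 2.11-fold with RefSeq lengths. With the Stat4 length outside bases shared with another gene, described below, the gap narrowed to 1.31- to 1.58-fold.

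Stat5a and Stat5b are the closest relatives of the family by sequence. Their longest GENCODE M21 coding sequences, 2391 and 2358 bases long, were identical at 90.8% of 2291 aligned bases. All other pairs of the 6 lay between 61.1% and 66.6%. The longest identical run covered coding bases 571 to 894 in both genes, 324 bases in all, and its first 100 bases are shown because no short read inside them can be given to either gene. The last 60 coding bases before the stop codon are shown beside it, because there the genes can be told apart. Sequences are from GENCODE M21, 5′ to 3′ on the coding strand.
Stat5a and Stat5b, coding bases 571 to 670: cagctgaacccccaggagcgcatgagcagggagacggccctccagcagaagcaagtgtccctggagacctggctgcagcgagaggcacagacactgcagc
Stat5a, coding bases 2332 to 2391: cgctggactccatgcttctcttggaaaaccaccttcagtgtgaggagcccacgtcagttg
Stat5b, coding bases 2299 to 2358: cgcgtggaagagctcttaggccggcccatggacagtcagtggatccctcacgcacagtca

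Counting rules touch these genes through such stretches. Of all 50-base words in annotated transcripts, 8.21% of those of Stat5a and 10.98% of those of Stat5b occur in the other gene. For words of 100 bases the shares were 3.44% and 4.79%. Fragments that map equally well to both genes were not assigned, so both levels may be slightly low. Stat2, Stat3 and Stat6 shared no word of 100 bases with another gene.

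Stat5b was the major Stat5 transcript in every library. Its ratio to Stat5a was 3.89, 3.89, 3.79 and 3.76 in replicates 1 to 4, and the log2 ratio was 1.94 ± 0.03 (SD, n = 4). That SD was the smallest of the 15 pairs, whose others ran from 0.07 to 0.21. With RefSeq lengths the geometric mean ratio was 2.22, and with no length correction (CPM, counts scaled by library total alone) 2.98. With union exon lengths the sum of both genes was 248, 241, 245 and 219 TPM, with a mean of 238 ± 13.3 TPM. That sum was below Stat6 in every library. By CPM this did not hold in every library. In replicate 1 Stat5b, Stat5a and Stat6 were at 314, 104 and 344 CPM, and in replicate 4 at 272, 93.2 and 407 CPM.

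The genes Stat5b, Stat5a and Stat3 are neighbours on chromosome 11 and span 158.81 kb. The starts of Stat5b and Stat5a point away from each other, 8.626 kb apart with no annotated gene between them. Stat5a and Stat3 run toward each other, and the ends of their exons overlap by 72 bases on opposite strands. Counting used strand, so fragments in the overlap belong to the gene on their strand. With union exon lengths Stat5b was the highest of these neighbours and Stat5a the lowest in 4 of 4 libraries, and Stat5a was the lowest in 4 of 4 with RefSeq lengths too.

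**Figure D2:**
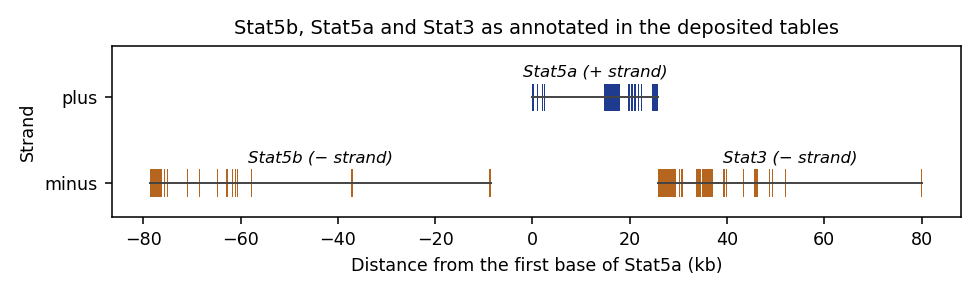
Map of Stat5b, Stat5a and Stat3 on chromosome 11, with distance from the first base of Stat5a in kb (x axis) and strand (y axis); boxes are exons and lines the gene spans. The starts of Stat5b and Stat5a lie 8.626 kb apart, and the ends of Stat5a and Stat3 overlap by 72 bases.

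Stat4 has an overlap that bears on its level. The gene Gm28177 (ENSMUSG00000101628, chromosome 1, 52077261 to 52156087), annotated as a processed transcript, lies on the same strand and shares 1033 of the 3872 exon bases of Stat4, or 26.7%, in 10 blocks that all lie in coding sequence. It had 12 counts over all 4 libraries, against 10800 for Stat4. No option on the counting command line assigns fragments that fit both genes equally. Fragments wholly inside the shared bases were therefore left out while these bases stayed in the length. Dividing by the 2839 bases outside the overlap gave Stat4 levels of 80.2, 76.5, 84.8 and 90.5 TPM, with a mean of 83.0 ± 6.04 TPM (n = 4). On that length Stat4 exceeded Stat2 in 4 of 4 libraries, by a log2 ratio for Stat2 over Stat4 of -0.35 ± 0.21, and still lay below Stat3 in each of them. This length was chosen after the overlap was seen, and it takes no account of fragments that lie across the edge of a shared block. Nor does it account for fragments with only 1 end in shared bases. If these were counted for Stat4, the level of 83.0 TPM is too high.

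The STAT genes varied between libraries to a degree near that of other expressed genes. The coefficients of variation ran from 4.80% for Stat5a to 9.34% for Stat6, beside a median of 6.66% over the 9926 expressed protein-coding genes. Among those genes Stat5a stood at percentile 31.1 and Stat6 at percentile 69.0. The median was 5.81% over the 7960 protein-coding genes with a mean of 10 TPM or more. A spread test compared each gene's variation between libraries with the trend for genes of its abundance (edgeR quasi-likelihood dispersion, one-sided F test with Benjamini-Hochberg adjustment). It called 24 of 12464 genes, or 0.193%, and 665 at an unadjusted p below 0.05. Of the 6 STAT genes 0 were called, 0 had an unadjusted p below 0.05, and DESeq2 marked 0 of them as dispersion outliers. Stat6 came closest (edgeR adjusted p = 0.961) and Stat5a was among the farthest (edgeR adjusted p = 0.995). The count over all genes depended on single libraries, with 30, 13, 7 and 86 genes called without replicates 1, 2, 3 and 4, and 0 STAT genes were called in each case. A p that misses the threshold does not show that the levels were equal.

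**Figure D3:**
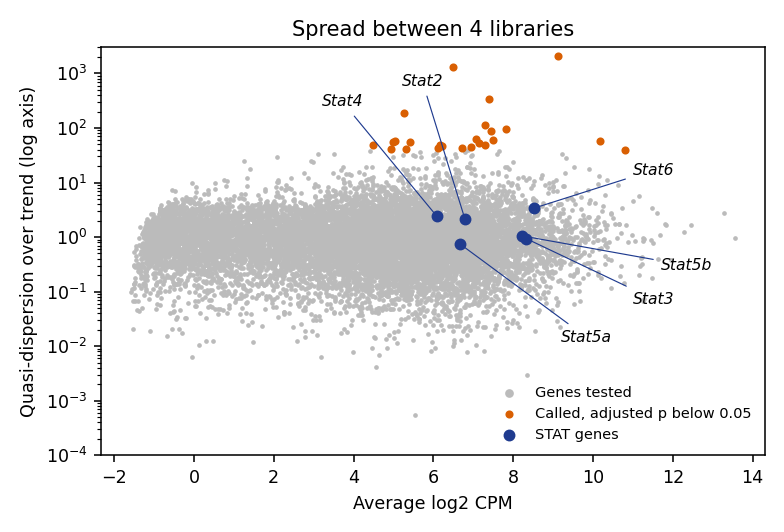
Spread of each of 12464 genes between the 4 libraries, as the quasi-dispersion divided by the trend (y axis, log scale) against average log2 CPM (x axis); orange points are the 24 genes called and blue points the STAT genes. The STAT genes lie inside the grey cloud, with Stat6 the highest of them.

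The small differences had a direction by library. Each gene's deviation from its own mean over the 4 libraries was taken on the scale of log2(CPM + 1), with CPM scaled by the TMM method. Stat5a deviated by 0.02, -0.02, 0.08 and -0.08 in replicates 1 to 4, and Stat5b by 0.04, 0.00, 0.06 and -0.11. On this scale both were highest in replicate 3 and lowest in replicate 4. By TPM, Stat5b was highest in replicate 1. The root mean square difference between their deviations, 0.0225, was the smallest among the 15 pairs. Stat6 deviated by -0.12, 0.04, -0.10 and 0.18, and Stat3 by -0.06, 0.03, -0.06 and 0.09, so that both were highest in replicate 4. Their difference of 0.0580 was the next smallest. Stat4 deviated by -0.07, -0.13, 0.05 and 0.14. Stat5b and Stat6 were the least alike pair, at 0.184.

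Among 100 other genes of the pathway past the filter, the gene whose pattern was nearest to Stat5b was Crlf2, the receptor chain for thymic stromal lymphopoietin, at a root mean square difference of 0.0075 over the 4 libraries. Crlf2 was at 69.4, 66.7, 67.2 and 60.3 TPM. For Stat5a the nearest were the chemokine receptor gene Ccr4 at 0.0226, Crlf2 at 0.0252 and the protease gene Furin at 0.0280. Ccr4 was at only 1.34 ± 0.0877 TPM, with 35, 40, 64 and 50 counts in replicates 1 to 4. Its counting error is large beside that difference, and the 1 added to CPM shrinks its deviations. For Stat3 they were the phosphatase gene Ptpn1 at 0.0157, the interleukin 4 receptor gene Il4ra at 0.0318 and Il2rb at 0.0336. For Stat6 they were the coactivator genes Ep300 and Crebbp, at 0.0210 and 0.0302, and the inhibitor gene Socs7 at 0.0357. For Stat4 they were Epas1 at 0.0281, Socs5 at 0.0450 and Pim1 at 0.0621. For Stat2 they were the interferon-stimulated gene Trim30a at 0.0177, Socs4 at 0.0483 and Il27ra at 0.0488. With 100 candidates and 4 libraries, near matches of this kind are a description only.

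**Figure D4:**
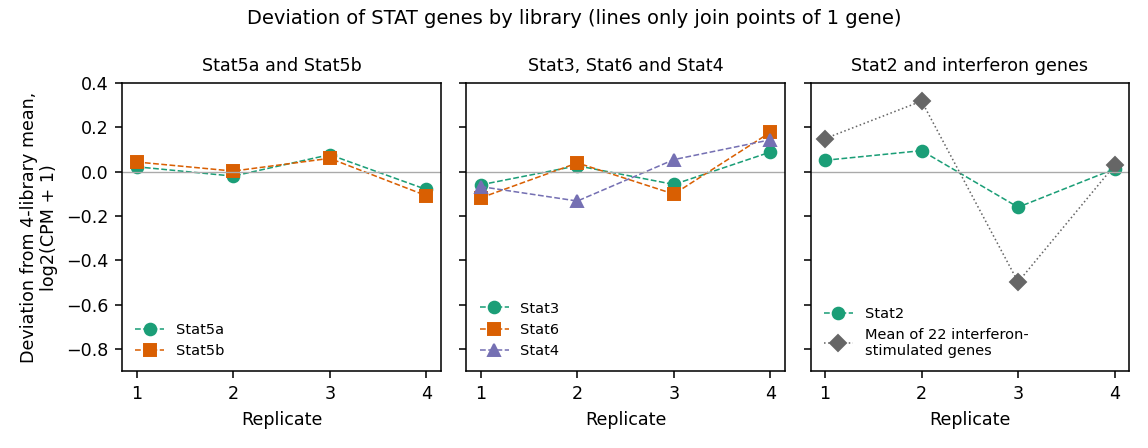
Deviation of each STAT gene from its mean over the 4 libraries (y axis, log2(CPM + 1)) in replicates 1 to 4 (x axis); dashed lines join the points of 1 gene and grey diamonds are the mean of 22 interferon-stimulated genes. Stat5a and Stat5b lie close together in each library, and Stat2 and the interferon-stimulated genes are both lowest in replicate 3.

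Stat2 was followed to the genes of the interferon response. Its deviations were 0.05, 0.10, -0.16 and 0.01 in replicates 1 to 4. The 22 interferon-stimulated genes listed as targets of the Stat2 complex had mean deviations of 0.15, 0.32, -0.50 and 0.03, and 22 of 22 were lowest in replicate 3, as were 31.0% of 12441 genes overall. Of the 22, 17 were highest in replicate 2, as were 25.03% of all genes. Their summed level was 1336, 1462, 917 and 1234 TPM. Trim30a was at 164, 166, 133 and 153 TPM, and Irf9, the DNA-binding partner of Stat2, at 130.0, 135, 100.1 and 114 TPM. All of these were lowest in replicate 3. By TPM so were Stat3 and Stat6, at 111 and 268 TPM, whereas Stat4, Stat5a and Stat5b were not. On the deviation scale Stat3 and Stat6 were lowest in replicate 1. Replicate 3 was also the deepest library, and the part of depth or of any other library property in this pattern was not tested.

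Of the list's 22 genes 2 were called for spread, beside 0.193% of all genes tested, and 17 of the 22 had an unadjusted p below 0.05 in the edgeR test, beside 665 of 12464 overall. Genes that move together by library are not independent, and the list itself was not tested. Ifit1, whose product binds foreign RNA, was at 61.3, 73.7, 27.0 and 48.1 TPM (edgeR adjusted p = 0.0482). Oas2, a sensor of double-stranded RNA, was at 61.4, 78.1, 30.3 and 61.9 TPM (edgeR adjusted p = 0.0396). Without replicate 3 neither was called, with adjusted p of 0.856 and 0.987, and without replicate 2 neither was, with 0.152 and 0.0901. Replicates 2 and 3 differed 2.72-fold in Ifit1 and 2.58-fold in Oas2, and 1.23-fold in Stat2.

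The stretches before the starts of Stat2 and Stat4 are printed because they were the only windows of the family to hold a motif searched for here. Windows from 250 bases before to 50 bases after each RefSeq start were searched for TTCNNNGAA, the core that most STAT dimers bind, and for GAAANNGAA, part of the element bound by the Stat2 and Irf9 complex, on both strands and with overlaps allowed. All 6 genes matched, with 9 windows. TTCNNNGAA was in 0 of the 9 and in 8.30% of all 32851 windows, and GAAANNGAA was in 2 of the 9 and in 8.56% of all. The match of Stat2, on the minus strand, begins 221 bases before the start, and that of Stat4, before a second start within the gene, 97 bases before it. Capitals mark the match, each sequence is the 250 bases before the start on the plus strand, and coordinates are RefSeq's on GRCm38.p6.
Stat2, chr10:128270248-128270497: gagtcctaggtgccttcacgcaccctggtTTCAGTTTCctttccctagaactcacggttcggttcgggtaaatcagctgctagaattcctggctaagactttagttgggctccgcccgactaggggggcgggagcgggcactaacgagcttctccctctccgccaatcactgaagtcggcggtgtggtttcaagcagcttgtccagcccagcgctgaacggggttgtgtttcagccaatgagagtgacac
Stat4, chr1:52007990-52008239: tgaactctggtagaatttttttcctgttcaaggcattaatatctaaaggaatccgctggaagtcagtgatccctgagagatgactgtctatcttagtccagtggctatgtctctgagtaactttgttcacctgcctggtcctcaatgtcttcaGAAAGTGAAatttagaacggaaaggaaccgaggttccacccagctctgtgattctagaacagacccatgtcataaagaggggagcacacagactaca

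A match is no binding site, and a window without one says nothing about the factor. Replicate 3 was the lowest library for Stat2, whereas Stat4 stood above its mean there. Neither gene was called for spread, and whether a match bears on these levels was not tested.

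The genes around the STAT genes in the pathway were described by role. Of 119 such genes, 97 or 81.5% reached 1 TPM in every library, beside 45.6% of nuclear protein-coding genes, and their median was 43.9 TPM. The lists were drawn up by role, hold many genes known in T cells, and were chosen with earlier results of these data known. Their share was not tested against the background.

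The 4 JAK kinase genes were all expressed. Jak1, which serves most of these receptors, was at 628, 652, 658 and 682 TPM, with a mean of 655 ± 22.2 TPM (n = 4). Jak3, the kinase on the shared chain Il2rg, was at 192, 180.0, 147 and 173 TPM, Jak2 had a mean of 120 ± 6.20 and Tyk2, which serves interferon and interleukin 12 receptors, of 83.9 ± 2.88 TPM. Jak1 was above every STAT gene in every library, and Jak2, Jak3 and Tyk2 lay within the range of the STAT genes.

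Receptor chains differed by STAT gene. Of 11 chains upstream of Stat5a and Stat5b, 7 reached 1 TPM in every library. The interleukin 7 receptor chain Il7r was at 632, 971, 654 and 956 TPM, high in replicates 2 and 4, and Il2rg was at 594, 584, 554 and 602 TPM. The interleukin 2 receptor chains Il2rb and Il2ra were lower, at 30.7 ± 1.4 and 4.14 ± 0.863 TPM, and Csf2rb and Ghr had 0 counts. Of 3 chains upstream of Stat6, Il4ra was at 274 ± 9.50 TPM, Il2rg is shared with the Stat5 list, and Il13ra1 had 26 counts in all.

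Of 10 chains upstream of Stat3, 7 reached 1 TPM in every library. The interleukin 27 receptor Il27ra was at 476 ± 34.9 TPM, the interleukin 21 receptor Il21r at 395 ± 32.6, and the interleukin 6 receptor chains Il6ra and Il6st at 232 ± 6.77 and 146 ± 19.3 TPM. The chain Il23r, which marks mature Th17 cells, and Lifr had 8 and 10 counts in all, and Osmr had 0. Of 4 chains upstream of Stat2, the interferon receptor chains Ifnar1 and Ifnar2 were at 111 ± 12.1 and 58.6 ± 3.31 TPM and Il10rb at 32.2 ± 2.13, whereas Ifnlr1, the chain specific to type III interferons, had 0 counts. The interleukin 12 receptor chains upstream of Stat4 were the lowest of these lists. Il12rb1 was at 3.25, 2.85, 4.08 and 2.86 TPM, and Il12rb2 at 0.380, 0.690, 0.222 and 0.326 TPM with 66 counts in all. Stat4 itself, at 60.9 TPM, stood beside a specific receptor chain below 1 TPM in every library.

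The inhibitor genes had a median of 49.9 TPM, and 20 of 21 reached 1 TPM in every library. The phosphatase genes Ptprc and Ptpn6 led, at 545 ± 7.31 and 453 ± 75.5 TPM. Socs3, the feedback inhibitor of Stat3 signals, was at 214, 167, 195 and 217 TPM, with a mean of 198 ± 23.1, and Ndufa13 was at 148 ± 6.71 TPM. Socs2 was the exception, with 13 counts in all. Of the partners and nuclear transport genes 10 of 10 passed, led by the importin gene Kpnb1 at 218 ± 4.96 TPM, the exportin gene Xpo1 at 138 ± 10.9, Irf9 at 120 ± 16.1 and Nmi at 90.8 ± 3.15 TPM.

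Targets were uneven between the STAT genes. Of the interferon-stimulated targets of Stat2, 22 of 22 reached 1 TPM in every library, with a median of 43.1 TPM, led by Bst2 at 165 ± 23.5, Trim30a at 154 ± 15.2, Zbp1 at 149 ± 21.6 and Dtx3l at 117 ± 11.2 TPM. Of the Stat3 targets 13 of 14 did, with a median of 62.1 TPM. The survival gene Mcl1 was at 566 ± 54.2, Junb at 295 ± 56.3, Socs3 as above and the kinase gene Pim1 at 126 ± 5.92 TPM. The Stat3 targets that define Th17 cells were far lower than these, with Il17f at 14.4, 9.21, 7.69 and 8.03 TPM, Il17a at 6.36, 4.30, 3.06 and 3.17 TPM, and Il21 below 1 TPM at a mean of 0.730 ± 0.352. Both Il17 genes were highest in replicate 1, where Il17a had 62 counts, and neither was called for spread. Whether their levels follow Stat3 was not tested.

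Of the Stat5 targets 9 of 10 reached 1 TPM in every library, with a median of 33.1 TPM. The cyclin gene Ccnd2 was at 209, 241, 189 and 299 TPM, Pim1 is shared with the Stat3 list, and the survival gene Bcl2 was at 91.7 ± 6.33 and Pim2 at 75.3 ± 7.60 TPM. Of the Stat4 targets 3 of 10 did, with a median of 0.461 TPM. They were Myd88 at 116 ± 2.99, the interleukin 18 receptor chain Il18r1 at 71.8 ± 5.47 and Furin at 23.8 ± 1.57 TPM. The Th1 regulator Tbx21 was at 0.518 ± 0.193 TPM, and the Th1 cytokine Ifng had 0 counts in every library, which allows up to 0.163 to 0.278 TPM per library. Of the Stat6 targets 5 of 9 did, with a median of 1.34 TPM. Il4ra was at 274 ± 9.50, the Th2 regulator Gata3 at 48.1 ± 4.37, Epas1 at 22.4 ± 1.90 and the chemokine receptor gene Ccr8 at 3.81 ± 0.717 TPM. The Th2 cytokine genes Il4, Il5 and Il13 had 1, 2 and 5 counts over all libraries and Il24 had 2. Stat6 and Stat4 were measured in every library beside lineage cytokines with 5 counts or fewer.

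**Figure D5:**
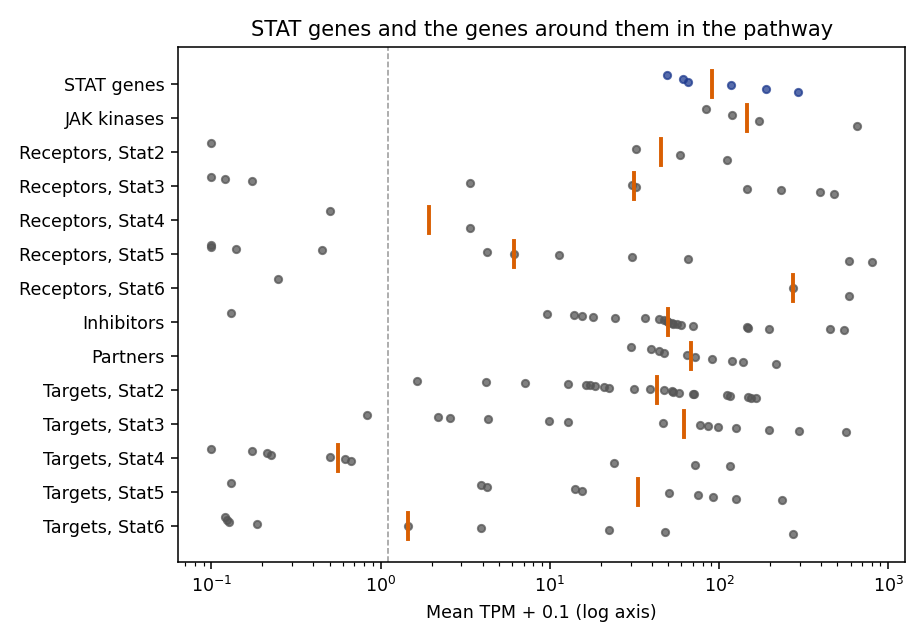
Mean TPM plus 0.1 over the 4 libraries (x axis, log scale) of each gene in 14 lists (y axis); points are genes, orange bars list medians and the dashed line is at 1 TPM. The STAT genes have a median of 91.3 TPM, and the Stat4 receptors, Stat4 targets and Stat6 targets have the lowest medians.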

How the data were processed

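RNA was measured in 4 libraries of 1 group. Raw counts of fragments were deposited for each gene: per the file headers, featureCounts 1.4.6-p4 counted paired fragments with both ends mapped, on exons of GENCODE M13 (mm10), with strand setting 2 (reverse). Its command line has no option for fragments that map to several places or genes. No aligner version is named in the labels or headers, and the labels call the assay total RNA-seq while linking a poly(A)+ library protocol.

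From the counts, TPM was computed here with the deposited union exon length; GENCODE M21 gave the symbols, by gene ID. Total counts ranged from 29041979 to 48808978. The spread test used edgeR 4.0.16 (R 4.3.3, intercept only, TMM, filterByExpr, robust prior), and DESeq2 1.42.0 was an alternative. The edgeR test was also run on simulated data. Those gave all genes a common dispersion, so they do not show how the test performs on these libraries. The p-values of the spread test measure only the spread between these libraries. A count of 0 was taken to allow 3 counts, for counting error only. Ratios were tested by an exact sign-flip permutation test. Coding sequences were the longest annotated per gene in GENCODE M21, aligned with Biopython 1.88, and promoter windows are RefSeq's. Python 3.11.15 with numpy 2.4.6 and pandas 2.3.3 did the rest. Alternatives covered normalization, filters, prior, gene length, total, TPM level and each library left out.

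The members and gene lists were chosen with earlier results of these data known. Besides the STAT and JAK genes, the text names up to 4 genes per list by mean TPM, those called for spread, those at or near 0 that define a list, the 3 nearest in pattern to each STAT gene, and up to 3 markers per list; Il2ra and Gm28177, outside that rule, were chosen after their values were seen.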

Additional observations from a re-analysis of the deposited data

How the results depend on the processing

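Of the comparisons between neighbouring STAT genes, the order of Stat4 over Stat5a turned with gene length, from a log2 ratio of 0.30 to -0.20 with RefSeq transcript length and -0.58 with CPM and no length correction. The order of Stat5b over Stat3 turned to -0.10 with CPM. Stat2 over Stat4 changed from 0.10 to -0.35 with the Stat4 length outside the bases shared with Gm28177, an alternative chosen after seeing the data. The construction of these settings, another length for the same counts, shows the cause. The other neighbouring ratios, and Stat5b over Stat5a, kept their direction under each of these settings and without any 1 library. The number of genes called for spread was 24, and was 108 with DESeq2, 10 at 5 or more mean CPM, 349 with no filter, 5 with a prior that was not robust, and between 7 and 86 with 1 replicate left out; the cause was not tested. Ifit1 and Oas2 were also not called at 5 or more mean CPM (adjusted p = 0.137 and 0.136) or with a prior that was not robust (0.122 and 0.118). Of the STAT genes 0 were called under each of these settings. Counting error was at most 2.30% of a count for the STAT genes, whereas for genes with few counts in all, such as Il23r with 8, depth leaves differences between libraries undetectable.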
